A study of Schizosaccharomyces pombe with 6 samples.

Results

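The neighbourhood of hsp16 and rad13 is a stretch of 35 kb on chromosome II of fission yeast (Schizosaccharomyces pombe), whose first probe starts at array position 2650244 and whose last ends at 2684854. It was chosen by measured values, with the RPA ratios of both strains on these same arrays already known. Both the level in each strain and the difference between strains were thus used in the choice, and all values of either kind below are a description. It holds 127 of 42641 nuclear probes, of which 126 were used, and 35 of 12039 windows of 1 kb with at least 2 probes. The reference annotation puts 16 protein-coding genes and 15 non-coding RNA genes there in whole or in part. Of the 16, lac1 has no probe inside the limits and SPBC3E7.17 has 1.

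The 6 arrays compared immunoprecipitated material (IP) with input in 2 colours, 3 from each strain. The group that the labels call WT is a cdc25-22 strain, and the other group is cdc25-22 rad3∆, so both carry the cdc25-22 allele. On rad3∆ array 3 the label of the input channel reads cdc25-23. Both strains were grown at 25 °C, held at 36.5 °C for 4 h, returned to 25 °C and given 6 mM hydroxyurea (HU); the titles also carry the number 60 with no unit. Per the series title the precipitated protein was Ssb1, which is the largest RPA subunit. The labels describe the material as total RNA, and reading it as DNA is an assumption behind every value. Nothing states that replicates came from separate cultures, so any p-value measures the spread between these arrays only.

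RPA coats single-stranded DNA, which is exposed at replication forks that stall under HU. Rad3 is the fission yeast checkpoint kinase of the ATR family and is recruited to such RPA-coated DNA. The cdc25-22 allele makes the phosphatase that drives mitosis temperature-sensitive, and a shift up and back releases cells in synchrony. The gene hsp16 encodes a small heat shock protein that is strongly induced by heat and other stresses. The gene rad13 encodes an endonuclease of the XPG family, which cuts beside DNA lesions in nucleotide excision repair.

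The sequences below are the stretch upstream of hsp16 and positions chosen by mean level in rad3∆, not by strain difference. The probe positions had the highest rad3∆ means in the hsp16 coding sequence and in the gap between fnx2 and SPBC3E7.07C. They are reference sequence (RefSeq, ASM294v3) at the array positions, since the array files hold no probe letters. The first is the stretch directly upstream of the hsp16 transcript start (chrII:2660993-2661242, minus strand, 250 bases). The second is a probe position in the hsp16 coding sequence (chrII:2660721-2660775, plus strand). The next pair are probe positions in the gap between fnx2 and SPBC3E7.07C (chrII:2671118-2671177 and chrII:2671327-2671386, plus strand). The last is a stretch of 300 bases in the same gap (chrII:2671495-2671794, plus strand), which contains the probe position with the highest strain difference.
hsp16 promoter: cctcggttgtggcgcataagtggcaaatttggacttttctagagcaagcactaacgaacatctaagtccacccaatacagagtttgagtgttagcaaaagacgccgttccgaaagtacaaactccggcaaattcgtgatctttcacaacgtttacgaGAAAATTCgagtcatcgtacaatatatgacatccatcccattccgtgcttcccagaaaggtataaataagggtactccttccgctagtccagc
hsp16 coding probe position: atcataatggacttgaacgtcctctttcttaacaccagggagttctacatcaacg
gap probe position at 2671147: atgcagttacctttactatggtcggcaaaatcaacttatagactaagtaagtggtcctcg
gap probe position at 2671356: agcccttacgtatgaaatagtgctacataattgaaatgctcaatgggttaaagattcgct
gap stretch: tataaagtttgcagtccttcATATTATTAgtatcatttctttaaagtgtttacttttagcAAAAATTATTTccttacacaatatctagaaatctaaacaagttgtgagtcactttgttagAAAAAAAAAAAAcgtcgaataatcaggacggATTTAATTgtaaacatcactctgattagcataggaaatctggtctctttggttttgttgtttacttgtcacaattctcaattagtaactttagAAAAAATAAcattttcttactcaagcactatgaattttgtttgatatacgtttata
Capitals in the promoter mark a match to GAANNTTC, a pair of facing heat shock element units, and capitals in the gap stretch mark runs of 8 or more bases that are all A or T. The gap stretch is 73% A+T, and the hsp16 promoter is 55.6% A+T. A search for GAANNTTC or TTCNNGAA, which together cover both strands because each reads the same on the other strand, found a match 93 bases upstream of the hsp16 start. Such a match is held by 16.7% of 5112 promoters of 250 bases (852), and by 4 of the 16 in the neighbourhood, those of nbs1, hsp16, SPBC3E7.09 and fma1. A match describes letters only.

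RPA is given as log2(IP/input) with the median nuclear probe of each array set to 0, so a value of 0 does not mean that RPA is absent. A value is given per array in the order 1, 2, 3, then as mean ± SD over n = 3 arrays. Fitted values come from limma with a term for dye orientation and carry SE. Strain differences are rad3∆ minus WT. A bulk ratio cannot separate fewer cells with RPA at a site from less RPA per cell.

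Across the whole 35 kb both strains had a low level, and rad3∆ read higher than WT at a pair of places, neither of which passed the test of the difference: over hsp16, and over SPBC3E7.07C with the gap beside it, just beyond the 3′ end of rad13. Of the 35 windows, 27 in WT and 26 in rad3∆ had fitted levels below 0, against 50.2% and 49.8% of all 12039 windows. The median fitted level was -0.35 in WT and -0.32 in rad3∆, against -0.0014 and 0.0029 over all windows. The median strain difference was -0.094 in the neighbourhood and -0.022 over all windows. The largest fitted differences were 0.78 ± 0.20 (SE), from 2671001 to 2672000, and 0.62 ± 0.16 (SE), from 2660001 to 2661000, which rank 70 and 160 among 12039. The lowest was -0.59 ± 0.15 (SE), from 2654001 to 2655000, over fab1, in a window that holds a probe high on WT array 1 alone.

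**Figure D1:**
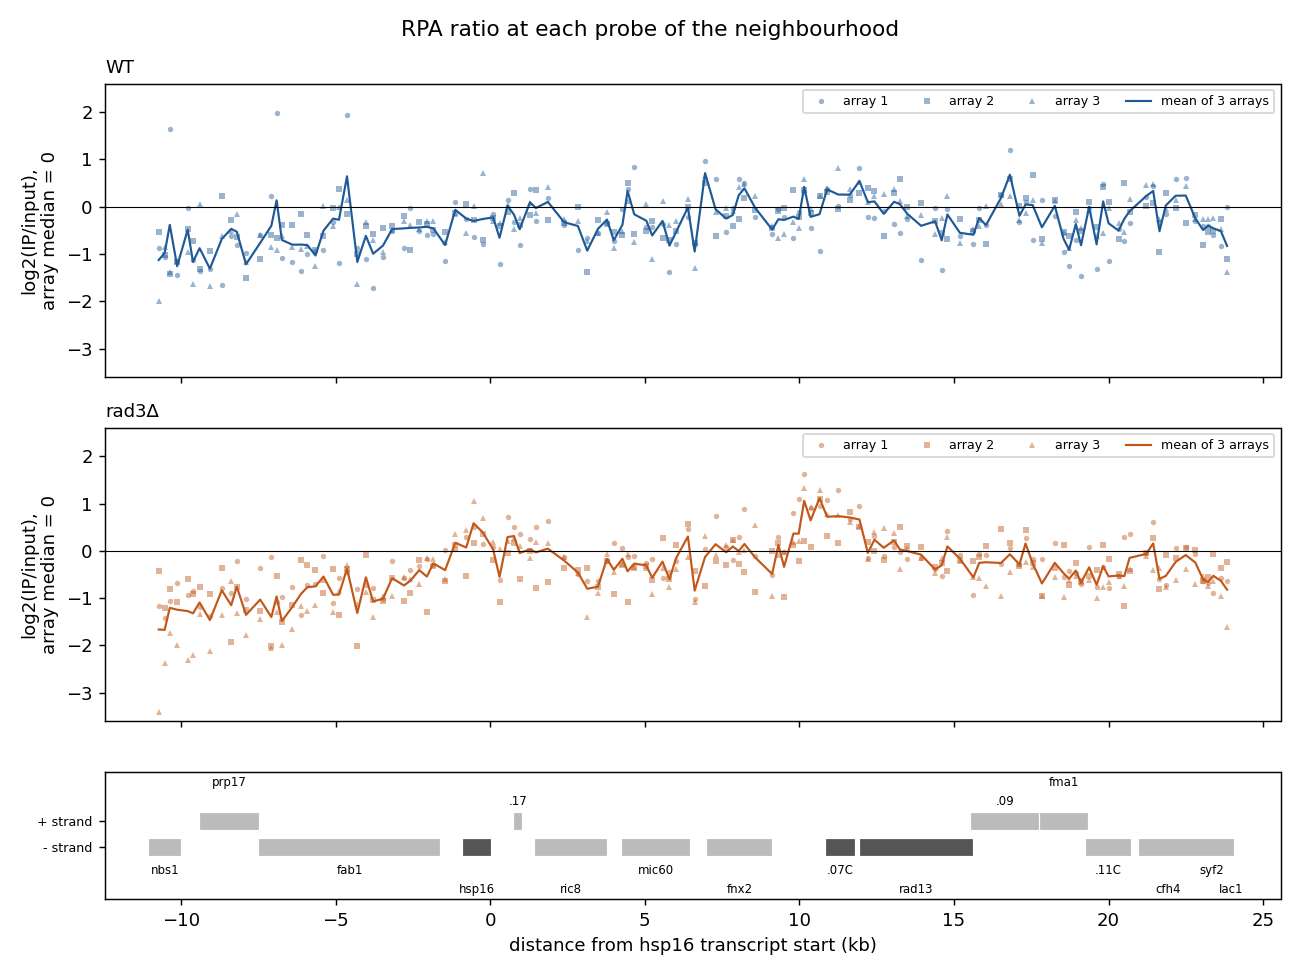
Log2(IP/input) at the 126 probes of the neighbourhood (y axis, array median = 0) against distance in kb from the hsp16 transcript start (x axis), with WT above and rad3∆ below. Symbols are single arrays, lines are means of 3 arrays, boxes are genes by strand (dark: hsp16, SPBC3E7.07C and rad13; labels that begin with a point lack SPBC3E7). In rad3∆ the mean line lies above 0 at hsp16 and, more broadly, to the left of rad13, where single probes reach a mean of 1.11.

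Calls of single windows used an adjusted p under 0.05 in limma with a fitted level of at least 0.5 (enriched, 1.41-fold over the array median) or at most -0.5 (depleted). In WT, 0 windows were enriched, where 18.5% of all windows were, and 11 were depleted, where 20.8% of all windows were. In rad3∆, 2 were enriched (18.8% of all windows) and 12 were depleted (21.3% of all windows). Without rad3∆ array 3, 6 windows were depleted in rad3∆, and over all 12039 windows the count fell as well, from 2562 to 1723. In windows of 2 kb, of which there are 17, 4 were depleted in each strain and 0 were enriched in rad3∆. Both enriched windows lie side by side from 2671001 to 2673000, over the gap and SPBC3E7.07C. For the strain difference, 0 windows were higher (0.108% of all windows) and 0 lower (0% of all windows) in rad3∆ with limma. Without adjustment, 2 higher and 3 lower windows had a p under 0.05, as did 5.11% and 3% of all windows. These shares are the background of the calls, and nothing is read from the counts.

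By single probes, every rad3∆ array lay above every WT array at 5 of 126 probes, where 4.79% of all probes did so, and below at 9, where 4.05% did so. Of the 5, 1 lies in hsp16, 2 in the gap between fnx2 and SPBC3E7.07C, 1 in SPBC3E7.07C and 1 in rad13. Of the 9, 3 lie to the left of the gap beside hsp16, 3 from ric8 to fnx2 and 3 to the right of rad13. Of the 12 probes between fnx2 and rad13, 10 had a higher mean in rad3∆, as did 10 of the 12 in hsp16 and its flanking gaps, SPBC3E7.17 included. Of the 34 probes to the left of these, 6 did so, as did 14 of 24 from ric8 to fnx2, 8 of 11 in rad13 and 9 of 33 to its right. In the whole neighbourhood 57 of 126 probes did so. Among windows, the fitted difference was above 0 in 15 of the 35 and in 45.3% of all 12039.

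hsp16 (SPBC3E7.02C) lies on the minus strand from 2660139 to 2660992, with its coding sequence from 2660490 to 2660921, and has 3 probes. Its RPA ratio read -0.56, -0.31 and 0.05 on the WT arrays and 0.31, 0.01 and 0.73 on the rad3∆ arrays. The means were -0.27 ± 0.31 in WT and 0.35 ± 0.37 in rad3∆ (SD, n = 3). All rad3∆ arrays were above 0, but the groups overlap, because dim rad3∆ array 2 lay just under WT array 3. The fitted levels were -0.18 ± 0.10 and 0.44 ± 0.10, a difference of 0.62 ± 0.14 (SE). The difference was 0.87, 0.31 and 0.68 on slides 1, 2 and 3, each of which carried 1 array of each strain. Among 4144 protein-coding genes the fitted difference of hsp16 ranked 18, its level in rad3∆ 803 and its level in WT 2511.

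The hsp16 probe with the largest strain difference lies between its coding sequence and its 3′ end, centred on 2660456. This probe read -0.65, -0.28 and 0.01 in WT and 0.52, 0.18 and 1.06 in rad3∆, so that the groups do not overlap. The coding probe shown above read -0.78, -0.71 and 0.70 in WT and 0.14, 0.36 and 0.69 in rad3∆, with WT array 3 level with the highest rad3∆ array. The probe nearest the 3′ end read -0.25, 0.06 and -0.56 in WT and 0.29, -0.52 and 0.45 in rad3∆, where the groups overlap. The gene is dim on these arrays, with 1 of 3 probes above background in both channels of all 6 arrays by the scanner software's well-above-background flag. The IP of the coding probe passed that mark on 1 of 6 arrays. How far the low signal sets the ratio there was not tested.

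Higher values in rad3∆ were not limited to the gene. The gap of 795 bp between hsp16 and the coding extent of fab1, on the 3′ side of hsp16, has 2 probes. As it starts at 2659344, it takes in the 5′ end of the fab1 transcript, annotated up to 2659457. It read -0.52, -0.34 and -0.46 in WT and 0.02, -0.26 and -0.12 in rad3∆, where the groups do not overlap. The gap of 803 bp upstream of hsp16, which contains the promoter shown above, has 4 probes. It read -0.38, -0.12 and -0.27 in WT and 0.17, -0.29 and 0.18 in rad3∆. Array 2 of rad3∆ was here within the WT range, and the other rad3∆ arrays were above it. The small gene SPBC3E7.17, farther upstream, had the same order on its 1 probe, with WT at -0.81, -0.38 and -0.24 and rad3∆ at 0.35, -0.59 and 0.11. Taking hsp16 and all flanking probes to ric8 as 1 stretch of 12 probes, WT averaged -0.26 ± 0.14 and rad3∆ 0.071 ± 0.28 (SD, n = 3), and the slides differed by 0.65, -0.062 and 0.41. The non-coding RNA genes SPNCRNA.1540 and SPNCRNA.540 lie in these flanks.

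rad13 (SPBC3E7.08C) lies on the minus strand from 2672990 to 2676569 and has 11 probes, of which 9 were well above background in both channels of all arrays. It read -0.45, -0.07 and -0.06 on the WT arrays and -0.07, -0.03 and 0.01 on the rad3∆ arrays. WT array 1 stood below the other 5, which lay close to the array median. WT averaged -0.19 ± 0.22 and rad3∆ -0.031 ± 0.039 (SD, n = 3), and the fitted difference was 0.16 ± 0.14 (SE). It came mostly from slide 1, at 0.37, while slides 2 and 3 gave 0.038 and 0.065. Among protein-coding genes the difference ranked 631 of 4144. Along the gene the probe mean in rad3∆ was highest at 2673420 (0.24 ± 0.21) and lowest at 2675382 (-0.39 ± 0.06). The non-coding RNA genes SPNCRNA.5767 and SPNCRNA.5768 overlap rad13 on the other strand, and a ratio of DNA signal does not tell strands apart.

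SPBC3E7.07C, for which the annotation gives no name, is the next gene on the 3′ side of rad13, from 2671877 to 2672767 on the minus strand, with 3 probes. It read 0.21, 0.13 and 0.53 in WT and 1.01, 0.44 and 0.71 in rad3∆, with only rad3∆ array 2 inside the WT range. The means were 0.29 ± 0.21 and 0.72 ± 0.29 (SD, n = 3), and the fitted difference was 0.43 ± 0.17 (SE). It was positive on each slide, at 0.80, 0.30 and 0.19. All 3 probes were well above background on every array. In rad3∆ its fitted level of 0.75 ± 0.13 (SE) ranked 181 of 4144 protein-coding genes. The probe in the 222 bp between it and rad13 was already high in WT, at 0.82, 0.28 and 0.52, and read 0.95, 0.51 and 0.53 in rad3∆.

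The gap of 1798 bp between SPBC3E7.07C and fnx2, the widest of the neighbourhood, has 8 probes. It read -0.34, 0.00012 and -0.21 in WT and 0.64, 0.064 and 0.36 in rad3∆, so that every rad3∆ array lay above every WT array, by little for array 2. The means were -0.18 ± 0.17 and 0.36 ± 0.29 (SD, n = 3), and the fitted difference was 0.54 ± 0.18 (SE). The slides gave 0.98, 0.064 and 0.57. The gap is 70.6% A+T, above 77.5% of 1962 gaps of at least 300 bp, whose median is 68.8%. The end of the gap next to SPBC3E7.07C held the higher values.

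The probe centred on 2671644, within the gap stretch printed above, had the highest strain difference of the 126. It read -0.94, 0.23 and 0.23 in WT and 0.95, 1.11 and 1.29 in rad3∆, a mean difference of 1.27. The groups are far apart there, and array 2 of rad3∆ is as high as the others, but the IP of this probe was well above background on 3 of 6 arrays only. The probe at 2671356 read -0.46, -0.14 and -0.05 in WT and 0.91, 0.09 and 0.94 in rad3∆. The probe at 2671147 read 0.31, 0.35 and 0.59 in WT and 1.62, 0.21 and 1.34 in rad3∆. At both, arrays 1 and 3 of rad3∆ stood well above WT, whereas array 2 was near or below the WT arrays. At the other end of the gap, beside the fnx2 start, the probe at 2670111 had means of -0.48 ± 0.09 in WT and -0.49 ± 0.47 in rad3∆ (SD, n = 3).

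**Figure D2:**
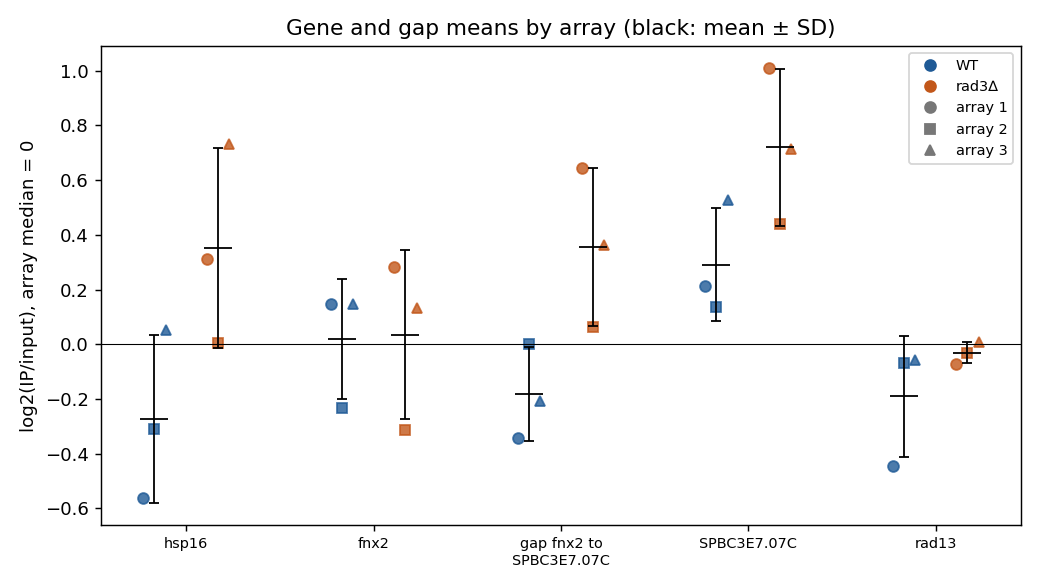
Mean log2(IP/input) over the probes of hsp16, fnx2, the gap between fnx2 and SPBC3E7.07C, SPBC3E7.07C and rad13 (x axis) in each array (y axis, array median = 0). Symbols are arrays 1 to 3 in WT (blue) and rad3∆ (orange), and black bars are mean ± SD. The groups separate in the gap, nearly so in hsp16 and SPBC3E7.07C, and lie together in fnx2 and, apart from WT array 1, in rad13.

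The gene fnx2, which encodes a vacuolar amino acid transporter, bounds these higher values on the left. It read 0.15, -0.23 and 0.15 in WT and 0.28, -0.31 and 0.13 in rad3∆, and the groups overlap throughout. On the right, SPBC3E7.09 beyond rad13 read -0.08, 0.0091 and -0.11 in WT and -0.19, 0.035 and -0.51 in rad3∆. Between hsp16 and fnx2, ric8 and mic60, the latter a subunit of the mitochondrial MICOS complex, had fitted differences of -0.026 ± 0.14 and 0.021 ± 0.12 (SE). The gap between mic60 and fnx2 went the other way, on 2 probes, at -0.12 ± 0.20 in WT and -0.48 ± 0.10 in rad3∆ (SD, n = 3). Its probe at 2667943 read 0.96, 0.51 and 0.66 in WT and 0.04, -0.73 and 0.31 in rad3∆, with no overlap.

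**Figure D3:**
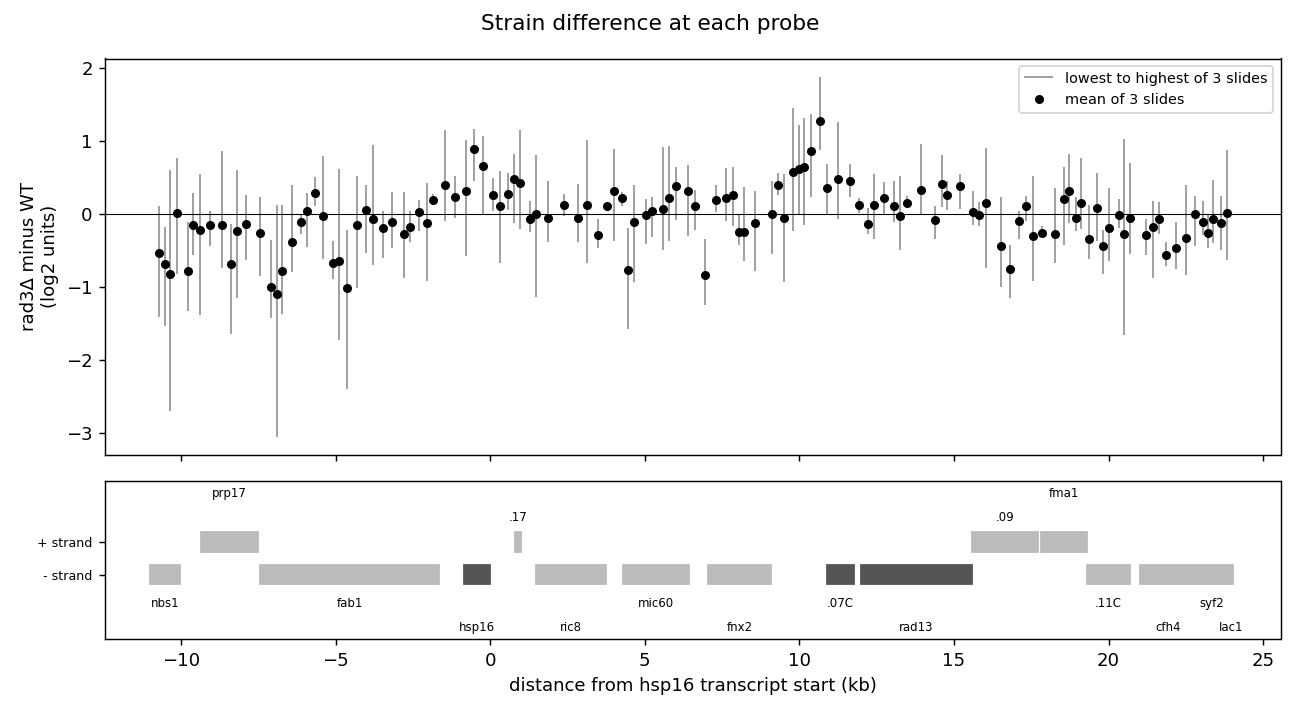
Strain difference of log2(IP/input), rad3∆ minus WT (y axis, log2 units), at each of the 126 probes against distance in kb from the hsp16 transcript start (x axis). Black points are means of the 3 slides, grey bars run from the lowest to the highest slide, and boxes are genes by strand. The means run above 0 around hsp16 and between fnx2 and rad13, up to 1.27, and below 0 over most of fab1.

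The ratio can be split into its channels, each as a log2 signal against the array median. Over hsp16 the IP signal was -1.93, -1.64 and -1.70 in WT and -1.30, -1.08 and -1.02 in rad3∆, where the groups do not overlap. The input there averaged -1.47 ± 0.21 (WT) and -1.48 ± 0.35 (rad3∆; SD, n = 3). Over the gap beside SPBC3E7.07C the IP was -0.16 ± 0.28 and 0.37 ± 0.23, and the input was 0.037 ± 0.11 and 0.024 ± 0.057. Over SPBC3E7.07C the IP was -0.39 ± 0.09 and 0.061 ± 0.16, against an input of -0.66 ± 0.11 and -0.65 ± 0.14. Over rad13 the IP was -0.80, -0.45 and -0.42 in WT and -0.36, -0.41 and -0.24 in rad3∆, where the groups do not overlap, by little for WT arrays 2 and 3. The share of all genes or windows with such an IP order was not computed, so nothing is read from it. The input of rad13 averaged -0.35 ± 0.02 and -0.30 ± 0.06 (SD, n = 3). Across the 35 windows the fitted input difference ran from -0.15 to 0.12.

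**Figure D4:**
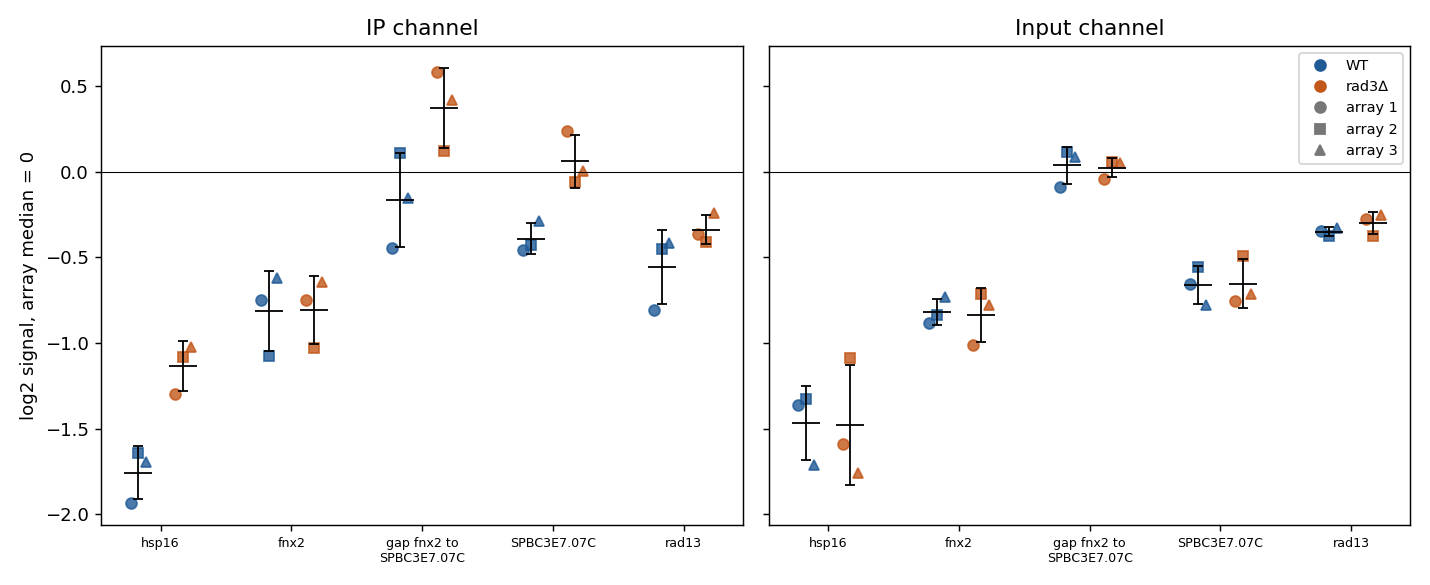
Log2 signal of the IP channel (left) and the input channel (right), each against its array median (y axis), for the same 5 genes and gaps (x axis). Symbols are arrays 1 to 3 in WT (blue) and rad3∆ (orange), and black bars are mean ± SD. The IP of hsp16, the gap, SPBC3E7.07C and, by little, rad13 is higher in every rad3∆ array than in any WT array, while their input means differ by -0.011, -0.013, 0.011 and 0.049. The share of all genes with this IP order was not computed, and 1 of the 3 hsp16 probes was well above background throughout.

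The left flank, up to the gap beside hsp16, was low in both strains. It covers the 5′ end of nbs1, a subunit of the MRN complex of DNA break repair, prp17, a splicing factor gene, and fab1, which encodes a phosphatidylinositol phosphate kinase. Over its 34 probes WT read -0.65, -0.60 and -0.74, and rad3∆ read -0.74, -0.88 and -1.33. Every rad3∆ array lay below every WT array, but this order rests on 3 probes that were high on WT array 1, as given next. The difference was -0.095, -0.28 and -0.59 on slides 1, 2 and 3. The 22 probes in the fab1 coding extent averaged -0.54 ± 0.06 in WT against -0.83 ± 0.20 for rad3∆ (SD, n = 3). Of the 3 high probes, 2 are among them. In nbs1 the 4 probes inside the limits averaged -0.94 ± 0.46 and -1.44 ± 0.81, and the groups overlap.

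WT array 1 had isolated high probes in this flank that no other array shared, 3 of them over 1.5. The probe at 2654087 read 1.97 on that array and -0.65 and -0.92 on WT arrays 2 and 3. The probe at 2650632 read 1.65, against -1.42 and -1.39. The probe at 2656363 read 1.95, against -0.16 and 0.14, and is 1 of the 9 probes above at which every rad3∆ array lay below every WT array. Without the 3 probes, an alternative chosen after seeing the data, WT array 1 read -0.89 over the flank and -0.81 over fab1. The flank then averaged -0.74 ± 0.15 in WT and -0.99 ± 0.32 in rad3∆, and fab1 averaged -0.63 ± 0.17 and -0.85 ± 0.23 (SD, n = 3). The groups overlap in both, and slide 1 gave a difference of 0.16 over the flank and 0.21 over fab1, above 0. Of the 34 probes of the flank, 14 were well above background in both channels of all arrays, against 80 of 126 (63.5%) over the neighbourhood.

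To the right of rad13, 33 probes read -0.30, -0.20 and -0.22 in WT and -0.29, -0.25 and -0.63 in rad3∆. Only rad3∆ array 3 stood apart. The genes there are SPBC3E7.09, fma1 (a methionine aminopeptidase gene), SPBC3E7.11C, cfh4 (named as a chitin synthase regulator) and syf2 (a splicing factor gene). Their fitted differences ran from -0.27 ± 0.15 (SE) at cfh4 to 0.018 ± 0.15 (SE) at fma1, and fma1 and syf2 were depleted in both strains.

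Over gene bodies, 15 of the 16 protein-coding genes had at least 2 probes, those outside the limits included. In WT, 0 were enriched (16.5% of all 4144 protein-coding genes) and 5 were depleted (21.1%). In rad3∆, SPBC3E7.07C was enriched (18.2% of all genes) and 5 were depleted (20.5%). The depleted genes were nbs1, prp17, fab1, fma1 and syf2 in both strains, and the annotated transcripts of prp17 and fab1 overlap and share all their probes in this count. For the strain difference 0 were higher (0% of all genes) and 0 lower (0% of all genes) with limma. Without adjustment, hsp16 and SPBC3E7.07C (2 genes) were higher at a p under 0.05 and 0 were lower. Of all 4144 protein-coding genes, 173 were higher and 84 lower (5.71% and 2.43% of all genes, non-coding included).

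**Figure D5:**
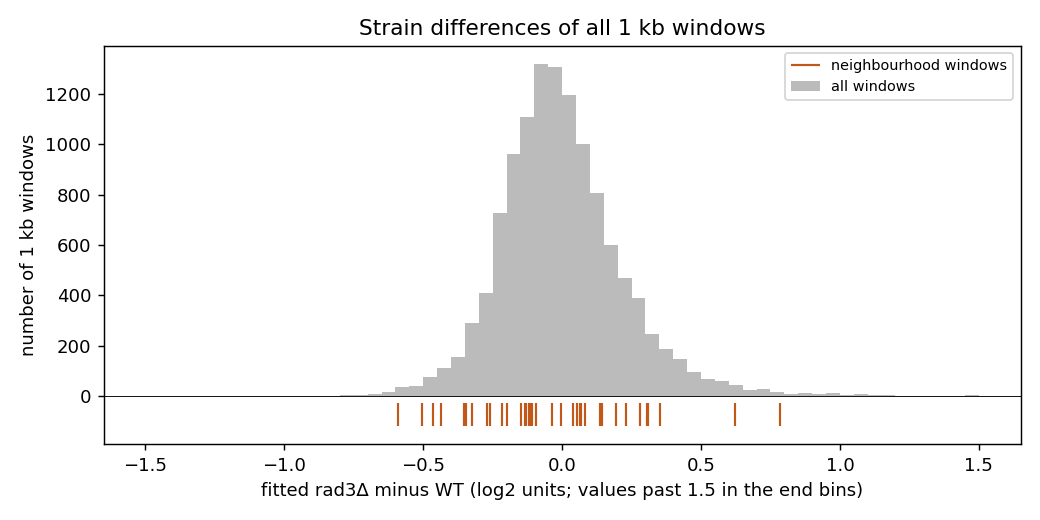
Number of 1 kb windows (y axis) by fitted strain difference, rad3∆ minus WT (x axis, log2 units), for all 12039 windows (grey bars), with each of the 35 neighbourhood windows as an orange mark below. The marks at 0.62 and 0.78 are the windows over hsp16 and beside SPBC3E7.07C, and the lowest mark, at -0.59, is over fab1.

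The 2 genes were next set beside others of their pathways. Of 22 listed names of heat shock and chaperone genes, 20 matched a gene once and 16 were measured; 3 were enriched and 2 depleted in WT, 4 were enriched and 2 depleted in rad3∆, and 0 were higher or lower between strains. Over all 4144 protein-coding genes, 16.5% were enriched and 21.1% depleted in WT, 16.2% enriched and 21.3% depleted in rad3∆, and 0 were higher or lower. The median fitted strain difference of the list was -0.027, beside -0.025 over all 4144 protein-coding genes. hsp16 had the highest, followed by ssa1, an Hsp70 gene, at 0.27 ± 0.15 (SE), from -0.74 ± 0.17 in WT to -0.47 ± 0.35 in rad3∆ (SD, n = 3). The lowest were pss1, a gene of the Hsp110 type, at -0.30 ± 0.13 (SE), and mdj1, a mitochondrial DnaJ gene, at -0.22 ± 0.13 (SE).

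Of 23 listed names of nucleotide excision repair and related nuclease genes, 22 matched and 20 were measured. Of these, 0 were enriched and 2 depleted in WT, 1 was enriched and 2 depleted in rad3∆, and 0 passed the test of the strain difference, beside the same shares over all protein-coding genes as above. Their median fitted difference was -0.048. The highest were ddb1, whose product is an adaptor of a Cul4 ubiquitin ligase, at 0.17 ± 0.15 (SE), and rad13 at 0.16 ± 0.14. The lowest were swi10, which encodes a nuclease subunit of the ERCC1 family, at -0.32 ± 0.12 (SE), and tfb1, a TFIIH subunit gene, at -0.32 ± 0.14.

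Over the 6 arrays, which share 3 slides, the gene-body ratios of hsp16 and rad13 correlated with each other at Pearson r = 0.73. Among 4129 protein-coding genes outside the neighbourhood, the patterns most like hsp16 were those of thr1 (r = 0.99), abp2, isp3, oxa101 and phx1 (0.97 each). Those most like rad13 were vma5 (0.99), mhf1 (0.98), mra1 (0.97), fmd2 and mug74 (0.96 each). An r over 0.9 was reached by 49 genes for hsp16 and by 20 for rad13, with 6 points each. Levels differed within each group, for example -0.36 ± 0.18 in WT and 0.034 ± 0.16 in rad3∆ for thr1, and 0.45 ± 0.21 and 0.61 ± 0.06 for vma5 (SD, n = 3).

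The values just inside and outside the limits were as follows. On the left, the last probe outside, at 2649849, averaged -0.76 ± 0.56 (WT) and -0.89 ± 0.79 (rad3∆; SD, n = 3), and the first inside, at 2650273, averaged -1.13 ± 0.76 and -1.66 ± 1.55. On the right, the last inside, at 2684824, averaged -0.83 ± 0.73 and -0.82 ± 0.71, and the first outside, at 2685055, averaged -0.58 ± 0.44 and -0.62 ± 0.22.

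The strain labels were checked on the deleted gene: in the window from 906001 to 907000, within rad3, the input signal averaged 0.56 ± 0.16 (WT) and -5.60 ± 1.24 (rad3∆; SD, n = 3). The median background-subtracted IP signal ran from 241 to 787 on the WT arrays and was 635, 41.4 and 1143 on rad3∆ arrays 1, 2 and 3. On dim rad3∆ array 2, 79.6% of nuclear probes were well above background in the IP, against 94.2% to 99.5% on the others. The slide of that array gave the smallest difference at hsp16 and in the gap, but at SPBC3E7.07C slide 3 did (0.19, against 0.30 on slide 2). Without rad3∆ array 2 the fitted difference was 0.72 ± 0.14 (SE) at hsp16, 0.71 ± 0.16 in the gap, 0.56 ± 0.17 at SPBC3E7.07C and 0.13 ± 0.16 at rad13. Without rad3∆ array 1 in its place, it was 0.54 ± 0.16 (SE), 0.38 ± 0.17, 0.23 ± 0.14 and 0.16 ± 0.17 in the same order. Whether the dim signal lowered the differences was not tested. The number of arrays limits the precision of all these values.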

How the data were processed

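The arrays are 2-colour Agilent arrays, 3 per strain, with each IP set against its own input. The authors deposited Feature Extraction output (version 10.7.1.1 on the replicate 1 arrays and 10.7.3.1 on the others, per the file headers), in which the processed signals are intensity values after background subtraction and linear dye normalization. The deposited log10 ratio is red over green; it matched the processed signals within 0.01 log2 units at 99.7% or more of probes. The IP was green on arrays 1 and 2 and red on array 3, per the labels. Of the columns read, 0 belong to other samples.

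Members and gene lists were chosen with earlier results of these data known. Log2(IP/input) was centred on each array's median nuclear probe, without loess or quantile scaling. Of 42641 nuclear probes of 45 to 60 bases, 42430 had no outlier flag and were used (211 left out). The median spacing over all 42641 nuclear probes was 264.5 bp. Windows of 1 kb (12039) and genes (8192, of which 4144 protein-coding) needed at least 2 probes and were fitted with limma 3.58.1 in R 4.3.3, with a mean per strain and dye orientation, and Benjamini-Hochberg adjustment over all of them. The window fit had 3 residual and 8.22 prior degrees of freedom. Python 3.11.15 was used for the rest, and the fit was tested on simulated data. Genes named are hsp16, rad13, all protein-coding genes with a probe in the 35 kb, the 2 highest and 2 lowest of each list, and the 5 most like hsp16 or rad13.

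The array design uses a build labelled Feb2002, per the file headers. Probe length against base composition in ASM294v3 matched with no offset over 10 bp in 107 of 126 segments of 100 kb, among them all 45 on chromosome II; the neighbourhood alone matched best at 4 bp (r = 0.59, and 0.30 for the next best offset away from it). Genes elsewhere were used only where segments matched.

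Same-numbered arrays of both strains share a slide, per the file headers, and their deviations from the strain means correlated at 0.34, 0.31 and 0.51 over windows, so that the numbers pair the arrays. The alternatives were a replicate block, no dye term, mode centring, normexp (offset 50), loess, scaled arrays, a GC correction, probes well above background, windows of 0.5 and 2 kb, the deposited ratio, thresholds of 0.3 and 1, and leaving out each array. Precision is limited by signal over background and by having 3 arrays a strain.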

Additional observations from a re-analysis of the deposited data

How the results depend on the processing

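Of 289 comparisons of a value with its alternatives, 277 moved by less than the spread between arrays or, for counts, by at most 1.5 times. The count of windows higher or lower in rad3∆ was 0 under every alternative run, the replicate block included. With the replicate block, which replaces the dye term, 10 windows were depleted in WT and 12 in rad3∆, and 2 were enriched in rad3∆, so the pairing changed no call by over 1.5 times. The fitted differences were the same with the block or no dye term. As each slide holds 1 array of each strain, this was fixed in advance and is no check, though it counts among the 277. Their SE can change: at hsp16 it was 0.14 with the dye term, 0.13 with the block and 0.21 with neither. The deposited ratio is nearly the same as the ratio of processed signals, so it is hardly a check either, though it is among the 289 comparisons. Windows enriched in WT became 1 with normexp and at a threshold of 0.3. Windows depleted in WT became 7 with loess, 4 in windows of 2 kb, 19 at a threshold of 0.3 and 2 at a threshold of 1. Windows enriched in rad3∆ became 0 in windows of 2 kb and at a threshold of 1. Windows depleted in rad3∆ became 22 in windows of 0.5 kb (50 windows in place of 35), 4 in windows of 2 kb (17 windows) and 4 at a threshold of 1. Leaving out 1 array gave 8 to 11 depleted windows in WT and 6 to 13 in rad3∆, the lowest without rad3∆ array 3, and 2 to 3 enriched in rad3∆. Without rad3∆ array 3 the depleted windows in rad3∆ also fell over all 12039 windows, from 2562 to 1723. The causes were not tested. Leaving out 1 array moved the strain difference between 0.54 and 0.72 at hsp16, 0.38 and 0.71 in the gap, 0.23 and 0.56 at SPBC3E7.07C, and 0.038 and 0.25 at rad13, the lowest value of rad13 without WT array 1. Array 3 of either strain gave the same difference when left out (0.59 at hsp16), because the dye term then takes up the other array 3. Both leave-outs thus compare arrays 1 and 2 only, and both differences count among the 277. With loess the fitted WT level of hsp16 was 0.056, above 0. Probes well above background left hsp16 with 1 probe and no value. Without the 3 high probes of WT array 1, chosen after seeing the data, the mean strain difference was -0.26 over the left flank and -0.22 over fab1, from -0.32 and -0.29, and the groups overlapped.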
